A study of Rattus with 108 samples.

Results

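The comparison described here is muscle of the rat paw 6 hours after a lateral paw incision (LPI) against muscle taken at 0 day of the same model. It holds 8 of the 108 libraries of the series, 4 at each time, chosen by the column names of the LPI muscle count table. The design text names LPI as the model of acute pain after surgery. Its chronic counterpart is SMIR, in which skin and muscle are incised and held apart by retraction. The animals were rats, 36 in all over 27 groups of 4 libraries. Strain, sex and age are not given in the sources used here, nor is any handling of the animals at 0 day. Per the labels' protocols all animals were perfused with saline under isoflurane before the incised tissue was dissected. The groups set beside the comparison were LPI muscle at 2 and 10 days, LPI skin at 0 day and 6 hours, and SMIR muscle and skin at 0 day, 6 hours and, for muscle, 2 days, with SMIR DRG at 0 day used for 1 set of genes. The extraction protocol also speaks of pools of RNA from several animals, while the labels number animals. A p-value therefore measures the spread between libraries, whether each stands for a rat or for a pool.

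A surgical cut through muscle tears fibres and vessels, and the first hours are known for the release of chemokines and cytokines by resident cells and for the arrival of neutrophils, followed by monocytes. Phagocytes then clear the debris, and satellite cells, the stem cells of muscle, start to divide only later. Skeletal muscle RNA is dominated by transcripts of the contractile apparatus and of energy metabolism, so the amount of fibre in a sample weighs heavily on its profile. The deposited tables identify genes by Ensembl gene IDs alone, and none of these IDs could be paired with a name, so genes are described here in groups set by their behaviour in other libraries of the series and not by pathway.

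Total counts per library ran from 21792696 to 26913266 at 0 day and from 22759903 to 28850790 at 6 hours. The tissue label was checked with 413 genes, here called muscle-over-skin genes, whose level in CPM (counts scaled to the library total) was at least 5 in uninjured SMIR muscle and at least 8 times that in uninjured SMIR skin. These genes took 35.5% to 38.8% of the counts in SMIR muscle at 0 day and 0.4% to 0.728% in LPI skin at 0 day and 6 hours. In LPI muscle at 0 day they took 0.66% in rat 1, 7.66% in rat 2, 8.89% in rat 3 and 20.3% in rat 4. At 6 hours they took 15.7% in rat 2, 3.65% in rat 3, 7.7% in rat 4 and 12.1% in rat 5. All 8 libraries thus held less of this RNA than uninjured SMIR muscle. The library labelled muscle of 0 day rat 1 lay within the range of LPI skin at 6 hours, 0.603% to 0.728%. It lay above that of LPI skin at 0 day, 0.4% to 0.435%. The reverse set, 1837 skin-over-muscle genes chosen in the same way, took 3.33% to 5.82% at 0 day, and 2.98%, 9.32%, 3.32% and 4.72% at 6 hours in rats 2 to 5, against 29.8% to 33.9% in LPI skin. The library of 6 hours rat 3 therefore stood above the other 7 in skin-over-muscle RNA. In such bulk samples, fewer cells of a type and less RNA per cell cannot be told apart.

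A further difference in make-up lay in a few very abundant genes. The 10 most abundant genes took 13.1% to 21.2% of the counts at 0 day and 22.0% to 37.2% at 6 hours, with no overlap. Of these, 3 genes that vary together across the libraries took 12.4%, 4.81%, 6.55% and 1.16% in 0 day rats 1 to 4. The same 3 took 14.7%, 25.6%, 30.8% and 11.8% in 6 hours rats 2 to 5, so that only 0 day rat 1 reached the level of the 6 hours libraries. All 3 belong to a set of 1038 genes with at least 5 CPM in SMIR dorsal root ganglia (DRG) at 0 day and at least 8 times the level of SMIR muscle and of SMIR skin. That set took 1.92% to 13.6% of the counts at 0 day and 13.0% to 32.8% at 6 hours, and without the 10 most abundant genes 0.757% to 1.24% and 1.16% to 2.03%. Of its 649 tested members 80 rose and 139 fell by 6 hours (median log2 change −0.52), beside 20.6% higher and 15.4% lower among all genes tested. The count of 80 was 50 without 0 day rat 4, and without both 0 day rat 1 and 6 hours rat 3 the counts were 48 and 81. The part of this set in the results was tested only for its most abundant genes, by a fit without the 10 most abundant genes, which called 5748 genes against 5839. Because of these abundant genes, levels per gene are given below as CPM on library sizes scaled by the trimmed mean of M-values (TMM), called scaled CPM. The TMM factors were 1.0183 to 1.125 at 0 day and 0.6674 to 0.8288 at 6 hours.

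**Figure D1:**
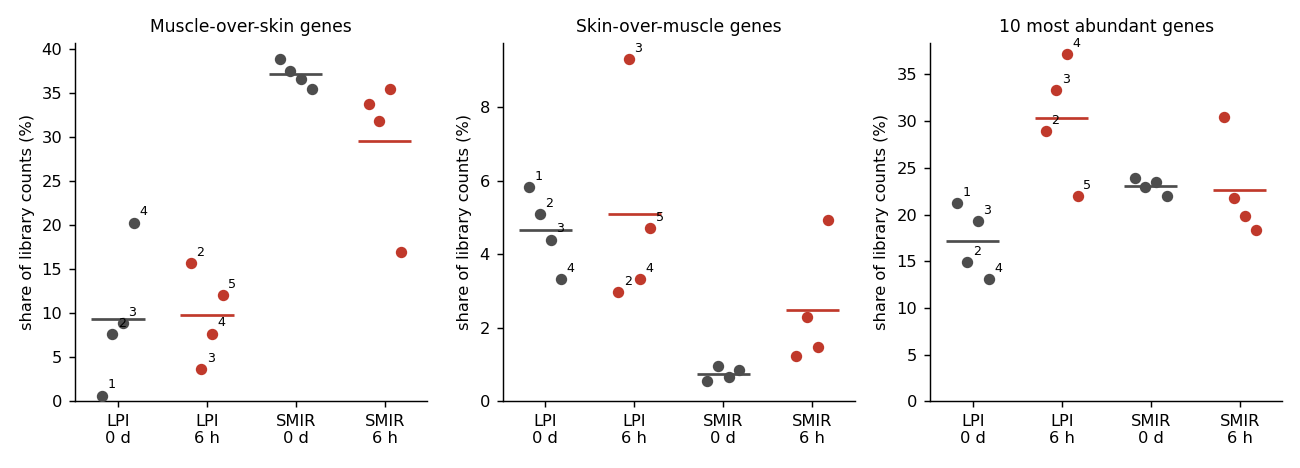
Share of the counts of each library (%) taken by the muscle-over-skin genes, the skin-over-muscle genes and the 10 most abundant genes, in muscle of both models at 0 day and 6 hours; each point is a library, numbered by rat for LPI, and each line the mean of 4. LPI muscle holds 0.66% to 20.3% of muscle-over-skin counts, below the 35.5% to 38.8% of SMIR muscle at 0 day, and 6 hours rat 3 stands above the other LPI muscle libraries in skin-over-muscle counts.

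Muscle at 6 hours differed from 0 day in a large share of the genes that were measurable, and the largest changes were rises. Of 16246 genes tested, 5839 changed (35.9%), 3342 of them higher (20.6%) and 2497 lower (15.4%), by edgeR's quasi-likelihood test at an adjusted p under 0.05. A change of at least 2-fold was seen upward in 1933 and downward in 1569 of them, and one of at least 4-fold in 842 and 569. Past 16-fold the counts were 297 up and 81 down, and past 64-fold 163 up and 39 down. From 2-fold upward the number of rises per fall thus grew with the fold, while the excess of rises in number shrank. The median absolute log2 change of the called genes was 1.20, and the median log2 change of all genes tested was 0.06 (median SE of a gene 0.31). The scaled levels of the 4 and 4 libraries did not overlap for 3308 genes that were higher (20.4%) and 2670 that were lower (16.4%). Of 848 tested genes at least 20 times higher in uninjured SMIR skin than muscle, 182 were higher (21.5%) and 68 lower (8.02%). Their upper quartile was a log2 change of 4.46. Without 6 hours rat 3, which stood highest in skin-over-muscle counts, 76 were higher and 71 lower. The part of 6 hours rat 3 in the largest rises was not tested.

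Which direction held the larger number of calls changed with the scaling and with the libraries used. DESeq2's size factors in the same edgeR fit gave 2787 higher and 2955 lower with an all-gene median of −0.05, and a fit without the 10 most abundant genes gave 2853 and 2895. Without 0 day rat 4 there were 2515 higher and 3073 lower. Without both 0 day rat 1 and 6 hours rat 3, the libraries that stood apart in muscle-over-skin and skin-over-muscle counts, 3808 genes were called, 2206 higher and 1602 lower.

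The share of genes called each way differed between levels of mean abundance over both times, a mean that the change itself shifts. Among 1968 tested genes with a mean under 1 CPM, 6.55% were higher and 9.20% lower, and among 4831 genes at 1 to 10 CPM, 12.6% were higher and 19.1% lower. At 10 to 100 CPM the order turned, with 27.0% of 7867 genes higher and 15.4% lower, and at 100 to 1000 CPM 31.0% of 1492 genes were higher and 11.7% lower. On the length-corrected scale of the deposited FPKM values, the genes called higher had a median level of 6.59 at 0 day and 11.9 at 6 hours, and those called lower 7.08 and 2.13, so their medians at 0 day lay close together. FPKM values are not scaled by TMM, and the median of all genes tested went from 5.65 at 0 day to 4.63 at 6 hours. On this scale rises are therefore understated and falls overstated. Median gene length was 2402 bases for the genes called higher, 2507 for those called lower and 2317 for all genes tested.

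Some genes had no count in any of the libraries at 0 day, or in any of those at 6 hours. Of the tested genes, 134 had no count in any of the 4 libraries at 0 day, and 58 of them were called higher at 6 hours. Against a floor of 3 counts over the group, the median gene of these 58 was at least 192-fold higher at 6 hours, and the one with the largest bound at least 5610-fold higher. In the other direction, 74 tested genes had no count at 6 hours and 45 of them were called lower. Their median bound was at least 14.8-fold lower, and the largest at least 197-fold lower. Over all genes of the table, 51 had no count at 0 day and counts in all 4 libraries at 6 hours, and 77 the reverse. The bounds use counts summed over the 4 libraries of a time, so a single library can carry them. The part of 6 hours rat 3, with its skin-over-muscle RNA, was not tested. A gene without counts at one time entered the test through its counts at other times, so these counts and bounds are a description of selected genes.

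Principal components of the 16 LPI muscle libraries set the 6 hours libraries apart. On the second component, which held 21.4% of the variance, the 6 hours libraries lay between 82.6 and 130, and the 12 other libraries at or below 19.8. On the first component, with 38.5%, the 6 hours libraries lay from −117 (rat 3) to 49.9 (rat 2), all below the 0 day libraries at 59.6 to 116, and rats 3 and 5 lay among the 2 days libraries at −181 to −18.5. Rank correlations across genes were 0.887 to 0.979 between libraries of 0 day, 0.885 to 0.965 between libraries of 6 hours and 0.785 to 0.917 between the times, so the ranges within and between overlapped.

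**Figure D2:**
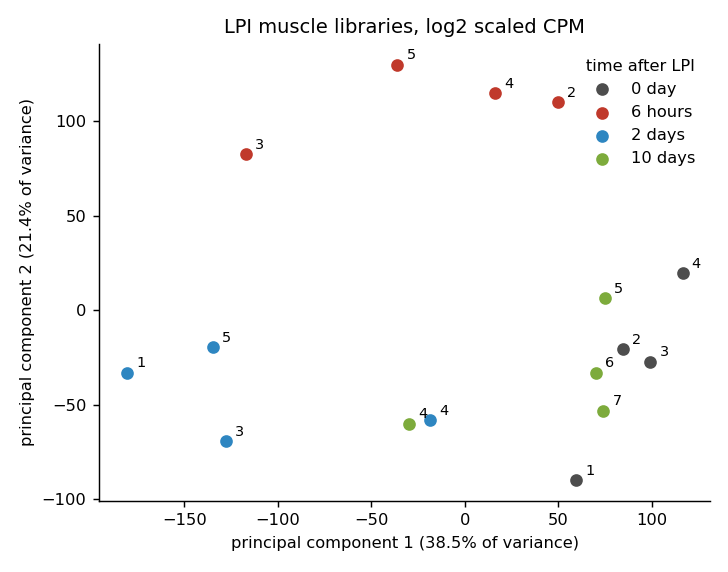
First and second principal components of the 16 LPI muscle libraries from log2 scaled CPM, coloured by time after LPI and numbered by rat; the share of variance stands on each axis. The 6 hours libraries lie at 82.6 to 130 on the second component, above all libraries of the other times.

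The IDs with the largest changes were taken by a rule that asked for a call, groups without overlap, a mean of at least 5 CPM at the higher time and at least 1 CPM at the lower time. It was met by 2516 genes that were higher and 1710 that were lower, and the leading pair each way is described. ENSRNOG00000004649 stood at 2.68, 0.816, 1.35 and 0.661 scaled CPM in 0 day rats 1 to 4, and at 697, 1084, 1114 and 1648 in 6 hours rats 2 to 5. Every 6 hours library stood far above every 0 day library, and rat 5 was the highest. The log2 change was 9.68 (SE 0.99, adjusted p = 1.51e-05 by edgeR), from a mean of 1.38 ± 0.915 to 1136 ± 391 scaled CPM (SD, n = 4 each). At 2 days it was at 618, 309, 19.2 and 338 in rats 1, 3, 4 and 5, with rat 4 far below the other libraries, and at 10 days at 1.45 to 3.59. Its change from 6 hours to 2 days did not pass (log2 −1.82, SE 0.70, adjusted p = 0.0617 by edgeR).

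ENSRNOG00000005871 rose from 1.42, 2.37, 3.35 and 1.57 scaled CPM at 0 day to 518, 1301, 819 and 2181 at 6 hours. The 0 day libraries lay close together, and the 6 hours libraries spread more widely than those of the ID before, with rat 5 highest and rat 2 lowest in both. The log2 change was 9.11 (SE 1.10, adjusted p = 4.19e-05 by edgeR). At 10 days it was above all 0 day libraries in 3 of 4 libraries, against 2 of 4 for the first ID, at 39.7, 22.4 and 22.8 scaled CPM in rats 4 to 6, with 1.94 in rat 7. That difference from 0 day did not pass (log2 3.32, SE 0.85, adjusted p = 0.0956 by edgeR).

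ENSRNOG00000031162 fell from 32.2, 31.9, 38.4 and 9.25 scaled CPM at 0 day to 1.09, 1.64, 1.05 and 1.16 at 6 hours. The 6 hours libraries were tightly grouped, and 0 day rat 4, the one with the most muscle-over-skin counts, was the lowest of its group. The log2 change was −4.50 (SE 0.68, adjusted p = 0.000245 by edgeR). The fall did not last to 2 days, where the 4 libraries stood at 37.9, 33.9, 15.7 and 15.4 (log2 change from 6 hours 4.38, SE 0.68, adjusted p = 0.000461 by edgeR).

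ENSRNOG00000006867 fell from 57.0, 76.7, 59.7 and 55.9 scaled CPM to 2.35, 5.67, 2.44 and 3.13 (log2 change −4.20, SE 0.60, adjusted p = 0.000146 by edgeR). The 0 day libraries of this ID varied little although their muscle-over-skin counts varied widely. At 2 days its libraries split, with 2.15 and 2.30 in rats 1 and 5 and 11.6 and 15.0 in rats 3 and 4, and at 10 days they lay between 24.0 and 45.9, below every 0 day library. The last difference did not pass (log2 −0.97, SE 0.52, adjusted p = 0.409 by edgeR). All 4 IDs kept their direction and their call at 6 hours under every alternative that was run.

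**Figure D3:**
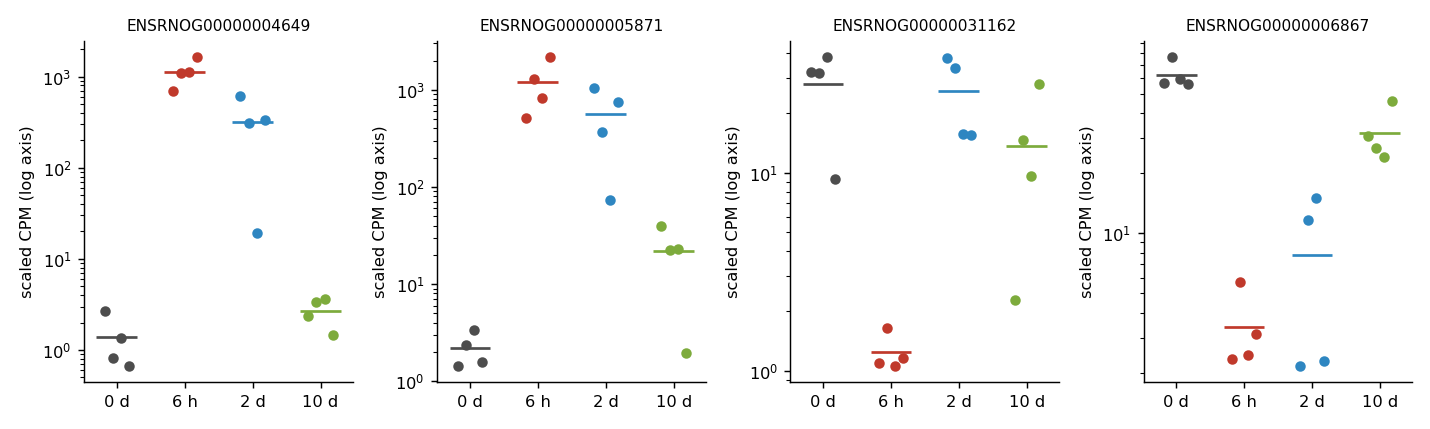
Level of the 4 IDs in scaled CPM (log axis) in each LPI muscle library at 0 day, 6 hours, 2 days and 10 days; points are libraries and lines the means of 4. At 6 hours the IDs that rose stand at 518 or more and those that fell at 5.67 or less. The lack of overlap with 0 day was a condition of their choice.

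Few of the muscle-over-skin genes were called at 6 hours. Of 413 members 409 were tested, 6 were higher (1.47%) and none lower, beside 20.6% and 15.4% of all genes tested. Their median log2 change was 0.32 beside 0.06 for all genes. Relative to the 0 day mean of each gene, the median member stood at −2.84, 0.39, 0.59 and 1.86 on the log2 scale in 0 day rats 1 to 4, and at 1.54, −0.30, 0.91 and 1.20 in 6 hours rats 2 to 5. The spread within 0 day was thus wider than any gap between the times. Leaving out a library moved the count of higher members from 1, without 0 day rat 1 or rat 2, to 17, without 0 day rat 4, and the median from −0.07, without 0 day rat 1, to 0.90, without 0 day rat 4. It was 2 without 0 day rat 3 or 6 hours rat 5, and with the gene-length trend of the libraries as a covariate it was 44, with none lower and a median of 1.70, and with the summed level of these genes themselves as a covariate 38 were higher and 1 lower. By 2 days these genes were far lower: 325 of 409 fell between 6 hours and 2 days and none rose, with a median log2 change of −4.14 beside −0.08 for all genes (281 of 390 with the replicate number as a block). The background of that comparison was 5115 genes called (31.5%), 2269 higher (14.0%) and 2846 lower (17.5%), and with the replicate number as a block 2645, 1301 higher and 1344 lower.

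The skin-over-muscle genes moved in both directions. Of 1680 tested, 328 were higher (19.5%) and 276 lower (16.4%), close to the shares of all genes. Their median log2 change of 0.30 rested on 6 hours rat 3, in which the median member stood at 0.67 on the log2 scale, against −0.16, −0.14 and −0.06 in rats 2, 4 and 5 and −0.21 to 0.09 at 0 day. Without that library the median was −0.12, with 189 members higher and 261 lower. Of the stricter set that was at least 20 times higher in skin, 848 of 1000 genes were tested. Of these, 182 were higher (21.5%) and 68 lower (8.02%), beside 20.6% and 15.4% of all genes tested. The median member of this set stood at 1.91 in 6 hours rat 3 and at −0.08, −0.04 and 0.18 in rats 2, 4 and 5. Without rat 3, 76 were higher and 71 lower. Leaving out 0 day rat 1, 2, 3 or 4 gave 97, 100, 88 and 92 higher members of the stricter set.

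Many of the genes that responded in the other model were called in the same direction in LPI muscle. SMIR is a different operation on other animals, and its libraries enter no LPI level. In SMIR muscle 31.7% of the genes tested changed at 6 hours, 17.7% up and 14.0% down. Of the genes at least 2-fold higher at 6 hours in SMIR muscle and called there, 1972 were tested in LPI muscle: 1324 were higher (67.1%) and 23 lower, with a median log2 change of 1.41, beside 20.6% higher and 15.4% lower among all genes tested in LPI muscle. Of the genes at least 2-fold lower in SMIR muscle, 1171 were tested: 579 fell (49.4%) and 3 rose (median −1.08). Across 15740 genes tested in both, the 6-hour log2 changes of LPI and SMIR muscle correlated with Pearson's r = 0.64 and Spearman's rho = 0.59, as a description, since genes are not independent replicates. Of the genes called in each, 1878 were higher in both, which is 57.6% of the LPI and 65.8% of the SMIR genes, and 1006 were lower in both, 41.0% and 44.0%. Opposite calls were rare, with 28 genes higher in LPI and lower in SMIR, and 29 the other way.

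**Figure D4:**
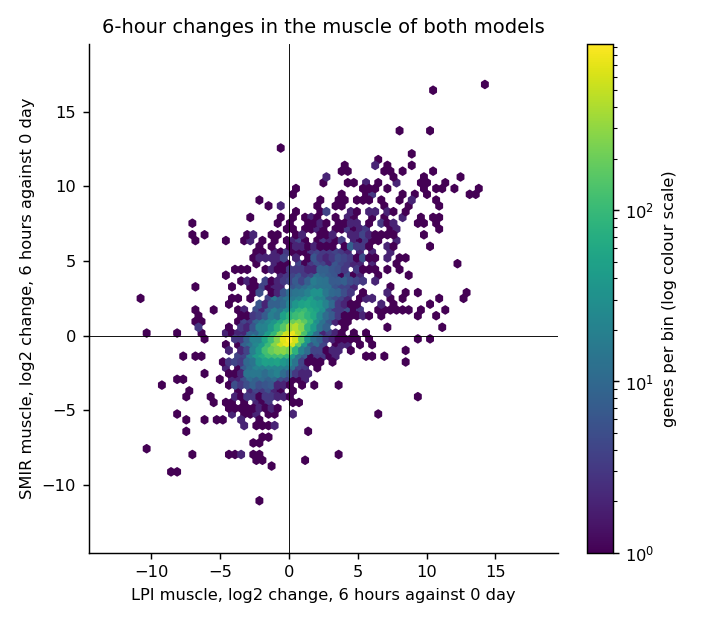
Log2 change at 6 hours against 0 day in LPI muscle (horizontal) and SMIR muscle (vertical) over 15740 genes tested in both, as the number of genes per hexagon on a log colour scale. Most genes lie near the origin or in the quadrants of equal sign (r = 0.64), and few lie far out in those of opposite sign.

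The response was divided by whether SMIR skin shared it, where 61.6% of genes changed at 6 hours, 30.6% up and 31.0% down. Genes raised at least 2-fold in both SMIR muscle and SMIR skin were the group with the highest share of LPI muscle risers: 501 of 626 tested (80.0%) were higher and 3 lower, with a median log2 change of 1.90. The median member stood at −0.09 to 0.07 at 0 day and at 1.34, 1.99, 1.63 and 1.70 in 6 hours rats 2 to 5. Genes raised in SMIR muscle but not called in SMIR skin followed, with 355 of 602 (59.0%) higher, 6 lower and a median of 1.37. The median member of these stood at 0.84, 1.44, 1.18 and 1.27 at 6 hours, above the −0.16 to 0.08 of 0 day. Genes raised in SMIR skin but not called in SMIR muscle had 264 of 921 (28.7%) higher and 99 (10.7%) lower (median 0.50), beside 20.6% and 15.4% of all genes tested. The 99 became 63 without 0 day rat 2, and without both 0 day rat 1 and 6 hours rat 3 the counts were 157 higher and 65 lower. Their libraries were at 0.28, 0.50, 0.27 and 0.32 at 6 hours and at −0.13 to 0.07 at 0 day, a small gap beside those of the other groups. In all 3 groups the 6 hours libraries lay above the 0 day libraries, and rat 3 was the highest.

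Falls were divided in the same way. Of the genes lowered at least 2-fold in both SMIR muscle and skin, 366 of 649 (56.4%) fell in LPI muscle and 2 rose (median log2 change −1.47). The median member stood at −0.18 to 0.13 at 0 day and at −0.96, −1.62, −1.15 and −1.50 in 6 hours rats 2 to 5. Without both 0 day rat 1 and 6 hours rat 3, 243 were lower. Genes lowered in SMIR muscle but not called in SMIR skin had 87 of 263 (33.1%) lower and none higher (median −0.70). Genes lowered in SMIR skin but not called in SMIR muscle had 502 of 1950 (25.7%) lower and 57 (2.92%) higher (median −0.57), beside 15.4% lower and 20.6% higher among all genes tested. The 57 became 28 without 0 day rat 2, 36 without 0 day rat 3, 30 without 0 day rat 4 and 34 without 6 hours rat 3. Without both 0 day rat 1 and 6 hours rat 3, 303 were lower and 17 higher.

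**Figure D5:**
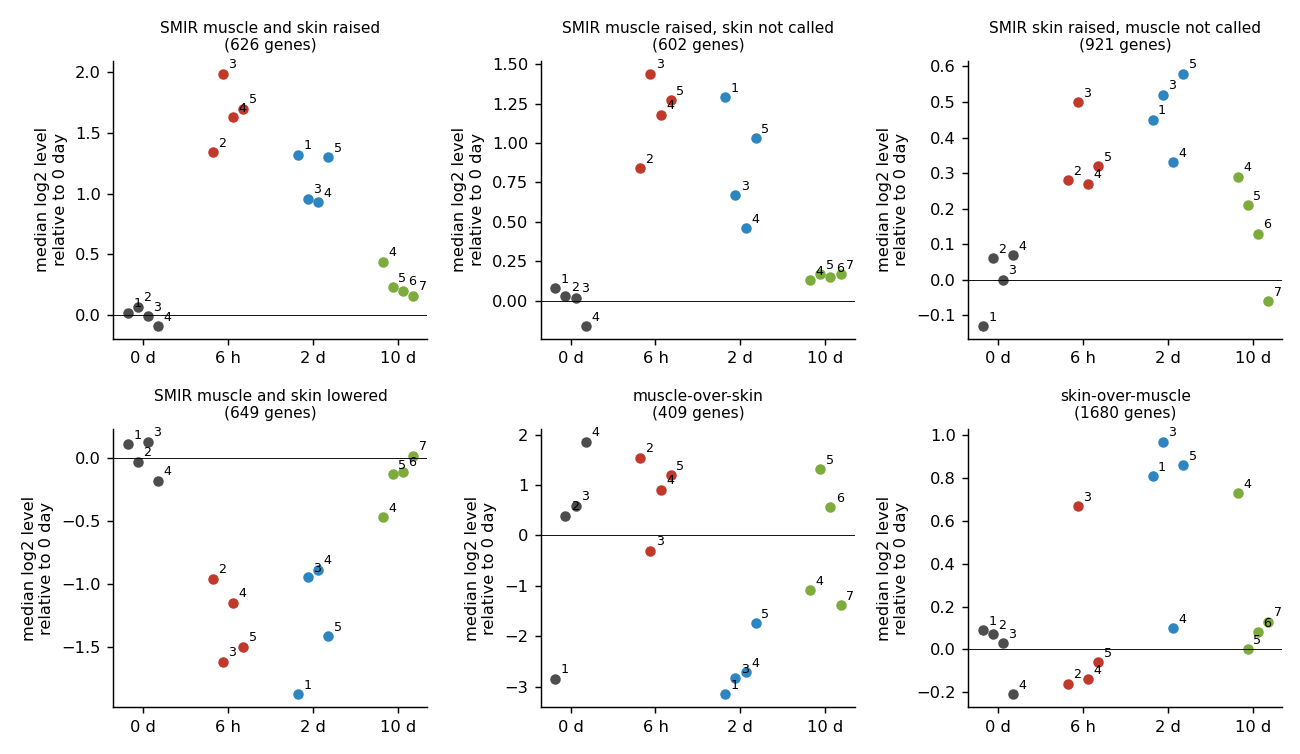
Median log2 level of the tested members of 6 gene groups in each LPI muscle library, relative to the mean of the 0 day libraries; points are libraries numbered by rat, and the vertical scales differ between panels. The groups raised or lowered in both SMIR tissues separate 6 hours from 0 day in every library, while the muscle-over-skin genes spread from −2.84 to 1.86 within 0 day and lie at −1.74 or lower in all 4 libraries at 2 days.

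The risers of SMIR muscle were also split by their course between 6 hours and 2 days in SMIR, and each class was then read in LPI muscle. Between these times 37.8% of genes changed in SMIR muscle, 19.4% up and 18.5% down. Genes that had fallen again by 2 days in SMIR were the early class: 596 of 769 (77.5%) rose by 6 hours in LPI muscle and 3 fell (median 1.63). From 6 hours to 2 days 345 of them (44.9%) fell in LPI muscle and 5 (0.65%) rose, with a median of −0.84 (302 and 1 with the replicate number as a block). Among all genes tested in LPI muscle 17.5% were lower and 14.0% higher between these times. At 6 hours against 0 day, 20.6% of all genes tested in LPI muscle were higher and 15.4% lower. Genes that had risen further by 2 days in SMIR had 61 of 147 (41.5%) higher at 6 hours and 6 lower (median 0.70). From 6 hours to 2 days 76 of these (51.7%) rose in LPI muscle and 1 (0.68%) fell, with a median of 0.98 (34 and 0 with the block). The libraries show this lag: the median member stood at 0.15, 0.93, 0.63 and 0.87 in 6 hours rats 2 to 5 and at 2.27, 1.34, 1.21 and 1.57 in 2 days rats 1, 3, 4 and 5. The count of 61 at 6 hours was 28 without 0 day rat 4 and 38 without 6 hours rat 3, and that of 76 at 2 days was 48 without 6 hours rat 2. Genes without a called change between 6 hours and 2 days in SMIR had 667 of 1056 (63.2%) higher at 6 hours in LPI muscle, 14 lower and a median of 1.38, and a median of −0.03 from 6 hours to 2 days.

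The difference between the models was tested directly. Of 17271 genes tested, the 6-hour change in muscle differed between SMIR and LPI for 867 (5.02%), with 424 more positive in SMIR (2.45%) and 443 more positive in LPI (2.56%), by edgeR at an adjusted p under 0.05. A fit of the compared groups alone gave 604, of which 397 were more positive in SMIR and 207 in LPI. Differences of at least 4-fold went mainly one way, 229 toward SMIR and 53 toward LPI. Of 1357 genes called higher in LPI muscle alone, 225 had a called difference, and of 1416 called lower in LPI muscle alone, 98. The remaining calls made in one model are thus not shown to differ between them. The number of called differences was 450 without LPI 0 day rat 1, 487 without LPI 0 day rat 2, 544 without LPI 0 day rat 3, 489 without SMIR 0 day rat 1 and 557 without SMIR 0 day rat 3. The groups also differed in make-up, with 35.5% to 38.8% muscle-over-skin counts in SMIR muscle at 0 day and 17.0% to 35.5% at 6 hours, against 0.66% to 20.3% and 3.65% to 15.7% in LPI muscle. The part of this in the differences was not tested.

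Among the 4 IDs none had a called difference between the models at 6 hours. ENSRNOG00000005871 rose by almost the same log2 amount in SMIR muscle, 9.07 (SE 1.04), from 0.345, 0.739, 0.386 and 0.945 scaled CPM at 0 day to 265, 476, 155 and 425 at 6 hours, and the difference from LPI was −0.05 (SE 1.24, adjusted p = 1 by edgeR). ENSRNOG00000004649 reached 193, 304, 70.1 and 146 scaled CPM in SMIR muscle at 6 hours, below every LPI library of that time, although the tables of the models were scaled separately. Its difference in change did not pass (log2 −1.97, SE 1.08, adjusted p = 0.295 by edgeR).

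Skin of the same animals gave the second direct test. In LPI skin 54.7% of genes changed at 6 hours, 27.2% up and 27.5% down. Of genes at least 2-fold higher in LPI skin at 6 hours, 1747 were tested in muscle and 1234 (70.6%) were higher there, 7 lower, with a median of 1.57. Of those at least 2-fold lower in LPI skin, 2167 were tested, 1032 (47.6%) fell in muscle and 20 rose (median −1.13). Among all genes tested in LPI muscle 20.6% were higher and 15.4% lower at 6 hours. The 6-hour changes of skin and muscle correlated across 15262 genes with r = 0.57 and rho = 0.67, over libraries from the same animals. The change differed between the tissues for 1427 of 17218 genes (8.29%), 714 more positive in skin (4.15%) and 713 more positive in muscle (4.14%). With the rat number as a block, which assumes that a number marks the same rat in both tissues, the count was 1005, of which 261 were more positive in skin and 744 in muscle. Opposite calls were made for 97 genes that were higher in muscle and lower in skin and for 45 genes of the reverse.

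Both leading risers changed less in skin than in muscle. They had been chosen for the largest rises in these same muscle libraries, so the choice itself favoured a smaller change in skin. ENSRNOG00000005871 was already at 207, 197, 173 and 222 scaled CPM in uninjured LPI skin and reached 536, 794, 866 and 250 at 6 hours, a level that overlaps with muscle at 6 hours from a start far above that of muscle, with each tissue's table scaled separately. Its change was smaller in skin by a log2 difference of −7.40 (SE 0.97, adjusted p = 5.72e-05 by edgeR). ENSRNOG00000004649 went from 8.82, 7.79, 8.41 and 10.9 scaled CPM in uninjured skin to 372, 522, 832 and 90.6 (log2 difference, skin minus muscle, −3.90, SE 0.92, adjusted p = 0.00916 by edgeR). The 2 IDs that fell also fell in skin, by log2 changes of −4.82 (SE 0.79) for ENSRNOG00000031162 and −3.49 (SE 0.37) for ENSRNOG00000006867, and neither difference between the tissues passed (−0.21, SE 0.87, and 0.81, SE 0.67; adjusted p = 0.939 and 0.506 by edgeR).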

How the data were processed

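The authors deposited whole-number read counts per gene that were not normalized, for 32623 Ensembl rat genes in each table, and matching FPKM values. Strand-specific TruSeq libraries were sequenced on a NovaSeq instrument, per the labels' protocols. FastQC 0.11.2, STAR and StringTie, and the builds rn6 and hg38, are named in the submitters' processing notes without their roles, and counting settings are not given in the sources used here, so how reads of near-identical gene copies were shared out is unknown. The deposited FPKM values gave gene lengths, by dividing each CPM by its FPKM, and the levels named as such.

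Columns name model, a time code, a rat number and tissue. Code 1 is no time given by the labels; 6 hours was the one time left for it. Columns were assigned to groups, and 0 were left over. Libraries of a group differed by a chi-square of at least 77.9 per degree of freedom, so none was a repeat of another.

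Counts were tested with edgeR 4.0.16 (limma 3.58.1, R 4.3.3): filterByExpr, TMM, robust quasi-likelihood fits, two-sided, Benjamini-Hochberg adjusted p under 0.05. All 16 LPI muscle libraries shared 1 estimate of the spread, and differences between models or tissues were interaction contrasts in a fit of both tables. The script was tested on simulated data with far fewer changed genes than were called here. It called 15 of 100 genes set to change 2-fold and 60 of 100 set to change 4-fold, with 0 in the wrong direction. A gene that was not called may therefore still have changed. Alternatives were DESeq2 1.42.0, other scalings and filters, covariates, a replicate block and leaving out libraries. Muscle-over-skin and skin-over-muscle genes were set on SMIR 0 day libraries after adding 0.1 CPM to each level. Response groups had a called change of at least 2-fold in the libraries named.

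The reference table of 47357 rat genes holds 0 Ensembl IDs, so the planned lists of 423 symbols, cell type markers and promoter motifs could not be used, and the 4 IDs are the largest log2 changes that met the stated rule, with overlap read on scaled CPM, since raw CPM is shifted by a few very abundant genes. Members, groups and tests were chosen with earlier results of these data known.

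Same-numbered libraries of LPI muscle at 6 hours and 2 days deviated together from their group means (correlations 0.47, 0.54 and 0.30 over 3 pairs), so the number was used there as a block beside the main result. Different-numbered libraries of these times reached from −0.58 to 0.48. Animals were perfused before dissection, so a number does not mark the same rat at both times. What a shared number stands for is not given, and the block results rest on no known pairing. Skin and muscle of a number were taken as tissues of the same rat, since the design text counts 108 samples of 36 rats; their libraries deviated together little (correlations −0.04 to 0.25).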

Additional observations from a re-analysis of the deposited data

Results flagged for a closer look

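The 6-hour change in muscle differed between SMIR and LPI for 867 genes by the test of the difference itself. The 6-hour change after LPI differed between skin and muscle for 1427 genes by the same kind of test. ENSRNOG00000004649 differed between the tissues by a log2 amount of −3.90, skin minus muscle, and ENSRNOG00000005871 by −7.40. Both IDs had been chosen for their rise in the same muscle libraries, which favours a smaller change in skin. Dixon's criterion marked no library in the 18 sets of 4 values examined, of which chance marks about 1 in 20. With 4 values it marks only extreme gaps, so this does not show that the libraries were alike. In make-up, 0 day rat 1 took 0.66% of its counts from muscle-over-skin genes, and 6 hours rat 3 took 9.32% from skin-over-muscle genes.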

How the results depend on the processing

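The 5839 calls at 6 hours became 1667 with the replicate number as a block and 3808 without both 0 day rat 1 and 6 hours rat 3, a choice made after seeing the data, and fewer libraries enter that fit. Same-numbered libraries of 0 day and 6 hours did not deviate together (correlations −0.13, −0.02 and −0.03), so they share only a number, and 3 numbers recur between the times. The other alternatives gave 5295 (no filter) to 7005 (DESeq2), and leaving out single libraries 4639 to 5823. The 5115 calls from 6 hours to 2 days became 2645 with the replicate block and 4169 to 5295 without single libraries. The 867 differences between models became 1655 with DESeq2, 68 with the replicate block and 450 to 1120 without single libraries; 1 of the 4 same-numbered SMIR pairs did not deviate together (correlations 0.30, −0.02, 0.27 and 0.27), so the numbers were not taken to pair them. A fit of the compared groups alone gave 604, 397 more positive in SMIR and 207 in LPI. The 1427 differences between tissues became 2265 with DESeq2, 1017 to 1712 without single libraries, and 1661 in a fit of the compared groups alone, 404 more positive in skin and 1257 in muscle. The cause of these moves was not tested. None of the 4 IDs changed sign or lost its call under any of the 18 alternatives. Not run were the symbol lists and the planned covariate of muscle markers, in whose place the muscle-over-skin genes gave 6007 calls and the skin-over-muscle genes 6342.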
